A study of Saccharomyces cerevisiae with 6 samples.

Results

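The set described here was made up of 5 genes of little-known function, YMR317W, ANS1, PNS1, FMP16 and BSC5, out of 5449 Saccharomyces cerevisiae genes measured. They were chosen because their transcripts shifted strongly between the groups compared, so their differences between groups are given as a description without a test. Transcripts were measured in strain VTT C-10883, a budding yeast strain, grown in anaerobic chemostats, which are continuous cultures fed with fresh medium and here kept without oxygen. The control group was 3 biological replicates with no inhibitors. The other group was 3 biological replicates whose feed had been stepped to medium containing 5-hydroxymethylfurfural (HMF) and furfural, aldehydes that form when plant sugars break down. Both groups shared the strain and the anaerobic growth. The labels state neither the aldehyde doses nor the time after the step nor the rate of dilution.

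Each array gave 1 log2 signal per gene on an Affymetrix array that also carries fission yeast probe sets. Array medians lay between 7.456 and 7.478, and the correlation of 2 arrays over all genes ran from 0.9983 to 0.9992 inside a group and from 0.9892 to 0.9936 between groups. A signal cannot fall below a floor of 2.21, the lowest value of any probe set. The fold change of a gene near it is thus a low estimate, and a signal just above it need not come from transcript. Fewer cells carrying a transcript and less of it per cell cannot be told apart in these bulk samples.

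As background, the 5 genes have no common pathway. YMR317W encodes a protein of unknown function. ANS1 encodes a predicted glycosylphosphatidylinositol (GPI) protein, a class that is anchored by a lipid at the cell surface or linked to wall glucan. PNS1 resembles animal choline transporter-like proteins, although a choline transport role has not been established in yeast. FMP16 was found in surveys of the mitochondrial proteome and has been linked to stress conditions. BSC5 was found in a search for genes arranged so that reading through a stop codon could join neighbouring reading frames. The predicted BSC5 protein resembles the N-terminal end of Bul1, an adaptor that brings amino acid permeases to the ubiquitin ligase Rsp5 for removal from the plasma membrane.

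With HMF and furfural, 2 of the 5 genes were higher and 3 were lower, by 2.02-fold to 6.80-fold. The groups did not overlap for 5 of 5, a separation seen in 55.4% of all genes, and since the set was chosen on this contrast nothing is read from that count. A difference of 2-fold or more, which 5 of 5 reached, was found in 1.08% of all genes. The set was chosen for large shifts, so nothing is read from this count either. BSC5 passed 2-fold narrowly, at a log2 difference of -1.02. It fell short of 2-fold under quantile normalization (-0.91) and without some single arrays (as little as -0.96). By size of difference among all genes the set took ranks 1 (YMR317W), 6 (PNS1), 10 (FMP16), 33 (ANS1) and 51 (BSC5). Each gene was measured by 1 probe set of its own, and none of these sets was marked as able to cross-hybridize.

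YMR317W had the largest difference of any gene. Its log2 signals were 3.84, 3.84 and 3.50 without inhibitors and 6.72, 6.30 and 6.46 with them. Every array with inhibitors was far above every array without, with 2.46 on the log2 scale between the nearest arrays. The means were 3.73 ± 0.19 and 6.49 ± 0.21 (SD, n = 3 each), a log2 difference of 2.76. Without inhibitors the signal was already 1.51 above the floor.

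ANS1, the predicted surface protein gene, was also higher. Its log2 signals were 3.08, 3.29 and 2.67 without inhibitors and 4.45, 3.995 and 4.25 with them. The groups were separated by 0.71, while the 3 control arrays alone spread over a similar range. The means were 3.02 ± 0.31 and 4.23 ± 0.23 (SD, n = 3 each), a log2 difference of 1.22. Its control mean was 0.80 above the floor, and its within-group spread was larger than that of 99.5% of all genes.

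PNS1, the choline transporter-like gene, nearly reached the floor with inhibitors. Its log2 signals were 4.53, 4.41 and 4.63 without inhibitors and 2.49, 2.45 and 2.49 with them. All 3 inhibitor arrays sat close together and well below the controls. The means were 4.52 ± 0.11 and 2.48 ± 0.02 (SD, n = 3 each), a log2 difference of -2.04 that left the inhibitor mean 0.26 above the floor.

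FMP16 was lower but stayed well above the floor. Its log2 signals were 6.66, 6.83 and 7.29 without inhibitors and 5.62, 5.13 and 4.82 with them. The groups were 1.04 apart at their nearest arrays. The means were 6.93 ± 0.33 and 5.19 ± 0.40 (SD, n = 3 each), a log2 difference of -1.74. Its within-group spread was larger than that of 99.8% of all genes.

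BSC5 had the smallest difference of the set. Its log2 signals were 3.52, 3.47 and 3.28 without inhibitors and 2.58, 2.34 and 2.31 with them. The groups lay 0.70 apart. The means were 3.42 ± 0.13 and 2.41 ± 0.14 (SD, n = 3 each), a log2 difference of -1.02 that ended 0.20 above the floor. Its lowest inhibitor array, at 2.31, was reached or passed by the mean of 3 of 1746 fission yeast probe sets, which have no target in these cells.

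**Figure D1:**
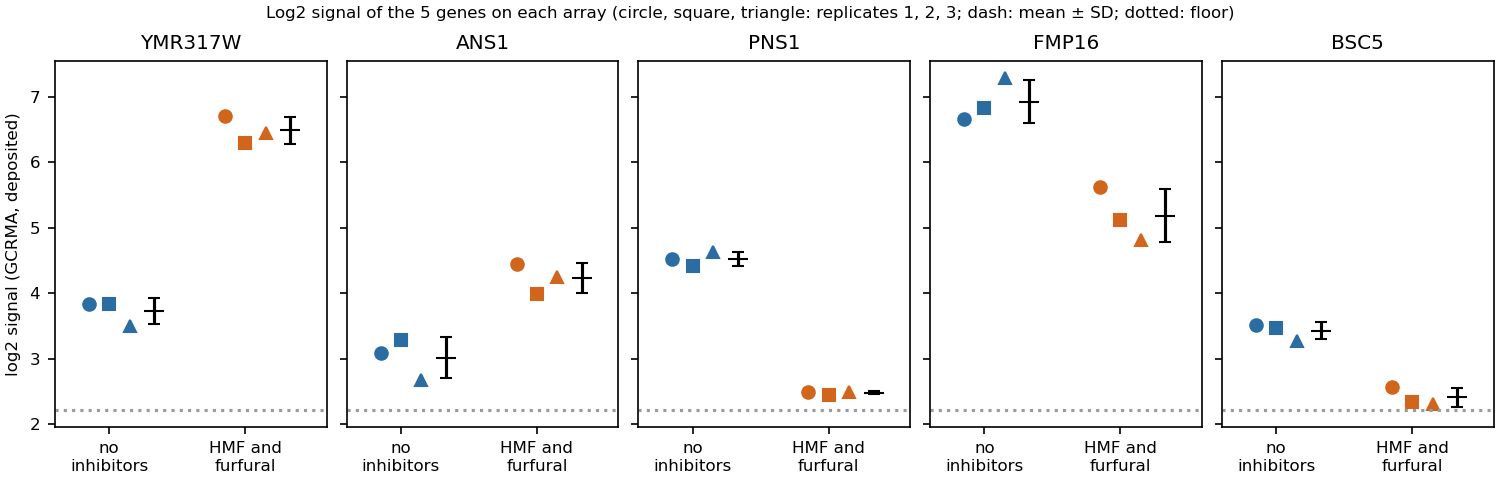
Log2 signal (vertical axis) of each gene on the 6 arrays, without inhibitors (blue) and with HMF and furfural (orange), with mean ± SD (n = 3) and the floor as a dotted line. PNS1 and BSC5 end 0.26 and 0.20 above the floor with inhibitors, and YMR317W has the widest gap between groups, 2.46.

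The replicates did not scatter alike in the 5 genes. Without inhibitors, replicate 3 was the lowest array for YMR317W, ANS1 and BSC5, and the highest for FMP16 and PNS1. With inhibitors, replicate 1 was the highest array for 5 of 5 genes. The pooled within-group SD was 0.20 for YMR317W, 0.27 for ANS1, 0.08 for PNS1, 0.37 for FMP16 and 0.14 for BSC5, against a median of 0.06 over all genes. Leaving out any single array kept the difference of YMR317W between 2.65 and 2.86 and that of ANS1 between 1.04 and 1.35. The difference of FMP16 then ranged from -1.96 to -1.56.

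The BUL genes gave the closest context for BSC5. In the RefSeq gene table BSC5 and the next gene, YNR068C, both carry the synonym BUL3, and the YNR068C protein resembles the C-terminal part of Bul1. YNR068C had log2 signals of 7.67, 7.78 and 7.73 without inhibitors and 6.39, 6.60 and 6.38 with them, so its groups did not overlap. It fell by 1.27 on the log2 scale (SE 0.07, 95% interval -1.45 to -1.10, limma adjusted p = 0.000453), a direction that BSC5 shared. In limma, 42.2% of all genes were called at an adjusted p under 0.05. Their highest inhibitor arrays differed, being replicate 2 for YNR068C and replicate 1 for BSC5. The signals of different probe sets are not comparable as levels, so the higher signal of YNR068C does not rank the 2 transcripts.

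BUL1 and BUL2, the full-length adaptor genes, had differences close to 0. BUL1 had a log2 difference of 0.0008 (SE 0.03, 95% interval -0.08 to 0.08, limma adjusted p = 0.998). BUL2 had -0.0019 (SE 0.03, 95% interval -0.07 to 0.07, limma adjusted p = 0.975). Set against BUL1 and BUL2 on the same arrays, YNR068C changed by a further -1.27 in each case (exact two-sided permutation p = 0.1, the smallest that 3 arrays against 3 allow).

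**Figure D2:**
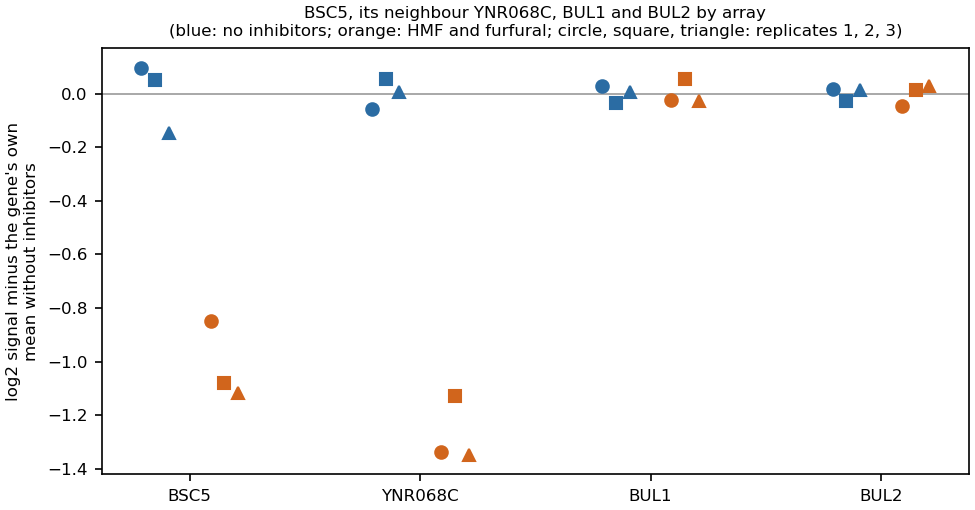
Log2 signal of each gene minus its own mean without inhibitors (vertical axis) for BSC5, YNR068C, BUL1 and BUL2 on each array. The inhibitor arrays (orange) of BSC5 and YNR068C lie about their log2 differences of -1.02 and -1.27, and those of BUL1 and BUL2 lie about 0, some within and some just outside the range of the controls (blue).

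Across the wider Rsp5 system, YNR068C included, 8 of 19 measured genes fell, 1 rose and 10 were not called, where 22.3% of all genes fell and 19.9% rose. The list median was -0.13 on the log2 scale against -0.0068 over all genes. EAR1, an adaptor working in endosomes, fell by 0.49 (SE 0.07, limma adjusted p = 0.0041), the arrestin gene ROG3 fell by 0.38 (adjusted p = 0.0047) and RSP5 itself fell by 0.37 (adjusted p = 0.0129). Among the other measured BSC genes limma called 0 of 4 in either direction, and 1 of the 4 was higher at an unadjusted p under 0.05. That gene, BSC4, had a log2 difference of 0.21 (limma adjusted p = 0.0961) and was called higher under quantile normalization. BSC1 was at the floor in both groups and could show no fall.

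Gene order was read from the RefSeq table of assembly R64, without positions, since no build is named for the array. Of the 3 protein-coding genes on each side of each of the 5 genes, 27 of 30 were measured. Of these, 7 rose, 5 fell and 15 were not called, so that 44.4% were called, near the 42.2% of all genes. YMR315W-A, YOR161C-C, PDR18, YNR071C and HXT17 were at or near the floor in both groups. They could show no fall but count in the 27. YNR068C alone passed 2-fold. Their median log2 difference was 0.02. The fallen neighbours numbered 3 without any one of no-inhibitor replicates 1 and 2 or inhibitor replicates 2 and 3.

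YMR317W lies on chromosome XIII with 7 genes between it and the chromosome end. The next gene towards that end is ADH6, an NADPH-dependent alcohol dehydrogenase gene whose enzyme can reduce HMF. ADH6 had means of 10.4 ± 0.07 without inhibitors and 10.2 ± 0.02 with them (SD, n = 3 each), and fell by 0.23 (SE 0.04, limma adjusted p = 0.00752). FET4, a low-affinity iron transporter gene beyond it, fell by 0.25 (limma adjusted p = 0.0176), a call that ended without no-inhibitor replicate 1 or 2 (adjusted p up to 0.0596). On the other side DIA1, a gene linked to invasive growth, had a log2 difference of 0.13 (limma adjusted p = 0.35, and called only without no-inhibitor replicate 3, adjusted p = 0.0139). The large difference of YMR317W was thus not seen in its measured neighbours.

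Near ANS1, the gene of unknown function YHR127W rose by 0.30 and FUR1, the uracil phosphoribosyltransferase gene, by 0.20 (limma adjusted p = 0.00227 and 0.00752). EPT1, a phospholipid synthesis gene, the meiotic regulator gene NDT80 and the dynactin gene ARP1 had log2 differences of 0.11, 0.04 and 0.08 and were not called. EPT1 was called higher under quantile normalization (adjusted p = 0.04).

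Next to PNS1, the nuclear import gene MTR10 had a log2 difference of -0.02 and the drug resistance regulator gene YRR1 of -0.0009 (limma adjusted p = 0.616 and 1). YRR1 was called only without no-inhibitor replicate 2 (adjusted p = 0.0327). DDP1, a polyphosphate phosphatase gene, rose by 0.48 (SE 0.04, limma adjusted p = 0.00103), against the direction of PNS1.

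Beside FMP16, which was lower with inhibitors, 3 of the 6 neighbours rose and 1 fell. OCA6, a putative phosphatase gene, rose by 0.37 (limma adjusted p = 0.00206), DOS2 by 0.45 (adjusted p = 0.00348) and PAA1, a polyamine acetyltransferase gene, by 0.18 (adjusted p = 0.042). DOA4, which recycles ubiquitin, fell by 0.24 (limma adjusted p = 0.0323). The PAA1 call was lost when any array but inhibitor replicate 1 was left out (adjusted p up to 0.11). The DOA4 call was lost without no-inhibitor replicate 2 or inhibitor replicate 2 or 3 (adjusted p up to 0.0903).

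BSC5 lies on chromosome XIV with 9 genes between it and the end. The genes that follow it outward, PDR18, YNR071C and HXT17, were at or near the floor in both groups, at means of 2.21 to 2.23. Inward of YNR068C, DSE4, a glucanase gene of daughter cell separation, rose by 0.10 (limma adjusted p = 0.0372) and YNR066C fell by 0.38 (adjusted p = 0.0443). Each of these calls was lost without any of several single arrays, with adjusted p up to 0.105 for DSE4 (no-inhibitor replicates 1 and 3, inhibitor replicates 1 and 3) and up to 0.125 for YNR066C (no-inhibitor replicates 1 and 2, each inhibitor replicate). The YNR066C call was also lost under quantile normalization (adjusted p = 0.32).

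**Figure D3:**
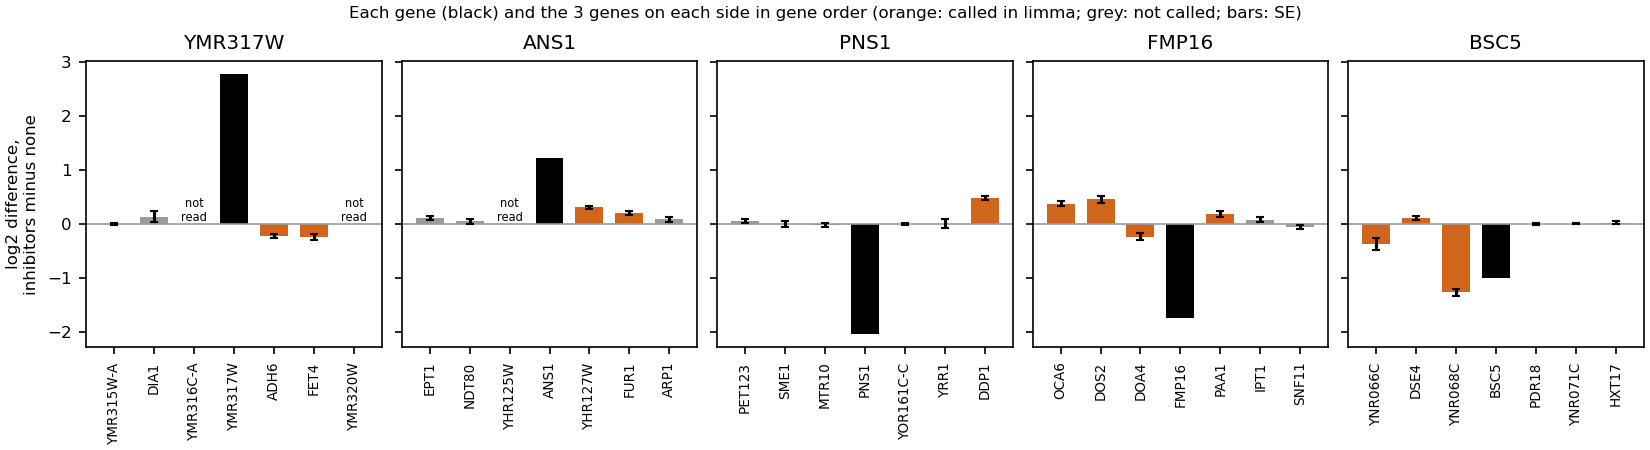
Log2 difference, inhibitors minus none (vertical axis), for each gene (black) and the 3 genes on each side in gene order (orange where called, grey where not, error bars SE). YNR068C, at -1.27 beside BSC5, is the sole neighbour past 2-fold, and ADH6 beside YMR317W is at -0.23.

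Profiles were compared over the 6 arrays after centring each gene on its own mean, with the root mean square of the differences as the measure of likeness. Because the group difference dominates such a profile, the nearest genes are mainly those with a difference of like size. Their differences and limma p-values thus follow largely from how they were picked, and are given as a description.

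YMR317W stood furthest from its nearest gene. That gene was FLO11, the flocculin gene of adhesion and filamentous growth, at a distance of 0.31 on the log2 scale, followed by YGR035C at 0.44 and the isomaltase gene IMA5 at 0.47. FLO11 had log2 signals of 10.5, 10.7 and 10.5 without inhibitors and 12.8, 12.8 and 12.7 with them. ANS1 was nearest to HES1, an oxysterol-binding protein gene (0.16), YHP1, a repressor gene of the cell cycle (0.17), and SPS4, a sporulation gene (0.18). No-inhibitor replicate 3 was the lowest control array for HES1, YHP1 and SPS4, as it was for ANS1. They were picked for likeness over these same arrays, which favours a shared low array, so nothing is read from it. HES1 rose by 1.09, YHP1 by 1.11 and SPS4 by 1.08 (limma adjusted p = 0.00195, 0.00119 and 0.00143).

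PNS1 was nearest to CWP1, a wall mannoprotein gene (0.15), AGX1, which makes glycine from glyoxylate (0.18), and the branched-chain amino acid permease gene BAP3 (0.24). Their log2 differences were -2.17, -1.83 and -1.61 (limma adjusted p = 0.000519, 0.000567 and 0.00101) and they ended well above the floor, at means of 6.25, 6.31 and 6.98. BSC5 was nearest to the drug exporter gene AQR1 (0.07), the B-type cyclin gene CLB1 (0.08) and AGP2, a membrane regulator gene of polyamine and carnitine uptake (0.09). AQR1, CLB1 and AGP2 had log2 differences of -1.10, -1.004 and -0.98 (limma adjusted p = 0.00313, 0.000329 and 0.0023).

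The nearest gene to FMP16 was HSP30, a plasma membrane heat shock protein gene, at 0.10, followed by the small stress protein gene HSP12 at 0.14 and the pheromone-regulated PRM10 at 0.18. HSP30 had log2 signals of 8.72, 8.94 and 9.28 without inhibitors and 7.77, 7.30 and 7.13 with them. HSP12 had 11.3, 11.6 and 12.1 without inhibitors and 10.2, 9.56 and 9.24 with them. FMP16, HSP30 and HSP12 had the same highest and lowest arrays in each group: replicates 3 and 1 without inhibitors, and replicates 1 and 3 with them. PRM10 differed, with replicate 2 as its lowest control. In all, 196 genes other than FMP16, or 3.6%, had these highest and lowest arrays. HSP30 and HSP12 were picked for likeness over these same arrays, which favours a shared order, so nothing is read from it.

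**Figure D4:**
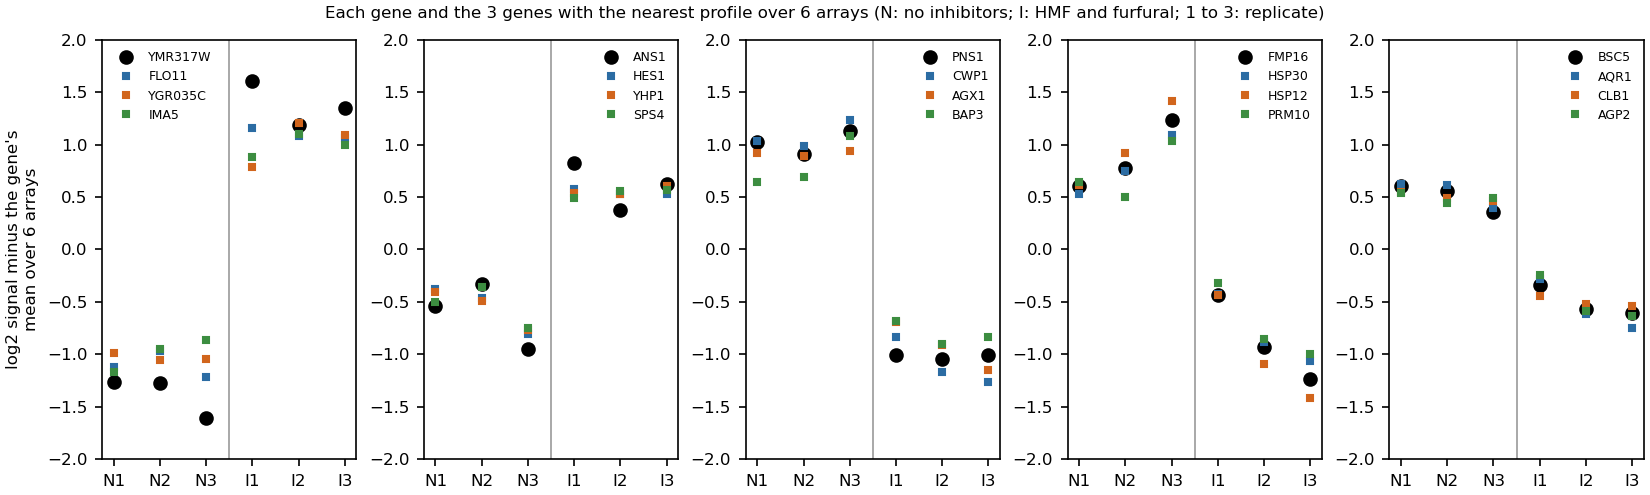
Log2 signal minus each gene's mean over 6 arrays (vertical axis) for each of the 5 genes (black) and its 3 nearest genes. FMP16 shares its highest and lowest arrays within both groups with HSP30 and HSP12, which were picked for likeness over these arrays. YMR317W is 0.31 from FLO11, its nearest gene.

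Genes of small or little-known stress and stationary phase proteins were listed as context for FMP16. Of 35 measured, 22 fell (62.9%, against 22.3% of all genes), 1 rose (2.86%, against 19.9%) and 12 were not called, with a median log2 difference of -0.48 against -0.0068 over all genes. RTN2, a reticulon gene of the endoplasmic reticulum, fell by 1.00 (SE 0.08, limma adjusted p = 0.000956) and TFS1, a carboxypeptidase Y inhibitor gene, by 0.99 (adjusted p = 0.000959). DDR2, a stress-induced gene, fell by 1.37 (SE 0.31, limma adjusted p = 0.0187), a call lost without inhibitor replicate 2 or 3 (adjusted p up to 0.0604). The exception that rose was MRK1, a kinase gene of the glycogen synthase kinase family, by 1.02 (SE 0.07, limma adjusted p = 0.000622).

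Genes once named FMP for being found in the mitochondrial proteome were called about as often as all genes, 43.8% against 42.2%. Of 32 measured besides FMP16, 9 fell (28.1%, against 22.3% of all genes), 5 rose (15.6%, against 19.9%) and 18 were not called, with a median of -0.04. AIM17 fell by 0.80 (limma adjusted p = 0.000479) and FMP45 by 0.60 (adjusted p = 0.0408), while FMP41 rose by 0.56 (adjusted p = 0.000329) and MPC1, a mitochondrial pyruvate carrier gene, by 0.48 (adjusted p = 0.000784). No gene of this list reached 2-fold. The FMP45 call was lost when any array but inhibitor replicate 1 was left out (adjusted p up to 0.115). FMP33, FMP45, FMP46 and MPC3 stand on both lists.

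ANS1 belongs to the class of predicted GPI proteins. Of its 52 other measured genes, 12 rose (23.1%, against 19.9% of all genes), 18 fell (34.6%, against 22.3%) and 22 were not called, and the median was -0.07. FLO11 rose by 2.20 (SE 0.07, limma adjusted p = 0.000317) and TIR2, an anaerobic mannoprotein gene, by 1.68 (SE 0.09, adjusted p = 0.000396). HPF1, a mannoprotein gene, fell by 2.60 (SE 0.15, limma adjusted p = 0.000481), and CWP1 fell as given above. With ANS1, the members higher by 2-fold or more were 4: ANS1, FLO11, TIR2 and the anaerobic mannoprotein gene DAN4.

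For PNS1, genes of choline uptake and phosphatidylcholine synthesis were listed, together with related genes of inositol and of phospholipid breakdown. The genes that fell include INO1, ITR1, ITR2 and SPO14 from these related genes. Of 22 measured, 10 fell (45.5%, against 22.3% of all genes), 2 rose (9.09%, against 19.9%) and 10 were not called, with a median of -0.12 and no change of 2-fold. HNM1, the choline permease gene, fell by 0.24 (SE 0.07, limma adjusted p = 0.0425), a call that ended when any no-inhibitor replicate, or inhibitor replicate 2 or 3, was left out (adjusted p up to 0.121) and under quantile normalization (adjusted p = 0.0507). INO1, the inositol synthesis gene, fell by 0.56 (SE 0.08, limma adjusted p = 0.00506), and INO4, an activator gene of phospholipid synthesis, rose by 0.31 (adjusted p = 0.00504). CHO1, which makes phosphatidylserine, fell by 0.30 (limma adjusted p = 0.0107), and PSD1, which decarboxylates it, fell by 0.27 (adjusted p = 0.0273). The PSD1 call was lost without no-inhibitor replicate 1 or 3 (adjusted p up to 0.0833).

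**Figure D5:**
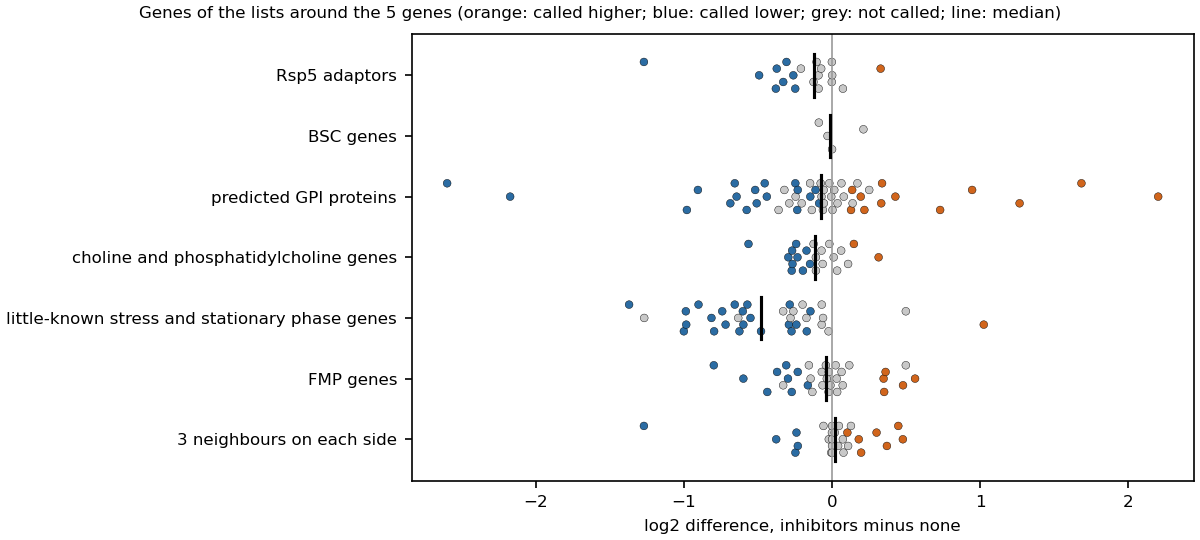
Log2 difference, inhibitors minus none (horizontal axis), for each gene of 7 lists (rows), coloured by its call in limma, with list medians as lines. The stress and stationary phase list has a median of -0.48, and the GPI list spans -2.60 to 2.20.

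YMR317W was 1 of the genes still known by a systematic name alone. The other 498 such genes included 82 that rose and 101 that fell, or 36.7% called against 42.2% of all genes. Of the 498, 22.9% had both group means within 0.5 of the floor, against 2.43% of the genes with a standard name outside the set. Without those near-floor genes 47.1% of 384 were called, and 43.7% of 4826 genes with a standard name. Changes of 2-fold or more in the 498 were 4. YGR035C rose by 2.05 (SE 0.11, limma adjusted p = 0.00044) and YHR210C by 1.00 (SE 0.07, adjusted p = 0.000781). YER053C-A, like YNR068C, fell past 2-fold, with a log2 difference of -1.14 (SE 0.07, limma adjusted p = 0.000578). The difference of 2.76 in YMR317W was larger than that of any of the 498, which follows from its rank of 1 among all genes.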

How the data were processed

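The authors deposited log2 signals per probe set. GCRMA and limma are named in the submitters' processing notes, without versions. GCRMA estimates background from probe sequences and brings arrays to a common scale, which leaves low signals at a floor. No normalization was added. The platform annotation gave 5498 probe sets 1 S. cerevisiae gene each, and the set with the highest mean signal stood for each of 5449 genes. Names and gene order came from the RefSeq table of assembly R64. Protein and promoter sequences were not used here, so a planned comparison of protein sequences was not run.

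Groups were compared in limma 3.58.1 (R 4.3.3), with group as the single factor, a two-sided moderated test, Benjamini-Hochberg adjustment over all genes and a threshold of 0.05. The fit was tried on 10 simulated sets of 5449 genes with 200 changed, all with a mean signal above 5. It found 61.4% of log2 changes of size 0.25, 92.4% of size 0.5 and 99.4% of size 1. These rates do not cover genes of lower signal, such as ANS1, PNS1 and BSC5. The share of genes changed was also far smaller than the 42.2% called in the data. Precision is limited by the number of arrays. The members and lists were chosen with earlier results of these data known, and the lists exclude the 5 genes. Named beside them were their 3 neighbours on each side, the 3 nearest profiles, up to 4 called genes per list, BUL1, BUL2 and HNM1. BSC4, DAN4 and the genes that 2 lists share were named after their values were seen. Alternatives covered normalization, an intensity filter, moderation, array weights, the replicate block, probe sets, the threshold and left-out arrays.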

Additional observations from a re-analysis of the deposited data

How the results depend on the processing

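No difference of the 5 genes changed sign or moved by more than its pooled within-group SD under quantile normalization or array median centring. As the groups did not overlap in these genes, leaving out 1 array could not change a sign. With 3 arrays per group it also could not move a difference by more than that SD. The mean of all probe sets and the replicate block could not alter these differences. Each gene had 1 probe set, and each replicate number had 1 array per group. Without 1 array at a time PNS1 stayed between -2.10 and -1.99 and BSC5 between -1.10 and -0.96. Of 64 other named genes 47 were called. At the threshold of 0.05, 37 of these kept the call under all 13 other fits, 10 lost it under at least 1, and 0 of the 47 changed sign; BUL1 and BUL2, not called, lay on both sides of 0. Under the replicate block the calls of CHO1, PSD1, DDR2, FMP45, YNR066C, PAA1 and DSE4 were lost (adjusted p = 0.0538 to 0.123). DSE4 also lost its call under array median centring, the intensity filter and array weights. At an adjusted p under 0.01, a stricter threshold, 608 genes were higher and 582 lower. The genes called lower were then 11 of the GPI list, 10 of the stress list, 5 of the choline list (with 1 higher), 4 of the FMP list and 2 neighbours, and systematic-name genes gave 47 higher and 55 lower. Quantile normalization gave 2 Rsp5 genes, 2 stress list genes and 1 BSC gene higher; the cause was not tested. Neighbours called lower ranged from 3 to 5 without 1 array. Leaving out near-floor genes, chosen after seeing the data, left 81 systematic-name genes higher and 100 lower. With the replicate block 774 genes were higher and 810 lower. Samples sharing a number are not paired by the labels, and their deviations correlated at -0.2198, -0.248 and -0.1994, so no array correlated best with its own number. Signals at the floor limit what PNS1 and BSC5 can show.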
